A study of Mus musculus with 15 samples.

Results

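The 10 transcripts described here, *Egr1*, *Egr2*, *Egr3*, *Nr4a1*, *Nr4a2*, *Nr4a3*, *Ier2*, *Ier3*, *Cyr61* and *Ctgf*, are early genes, and they were followed in the mouse uterus after estradiol (E2) or estriol (E3). They were found by gene symbol among the noncontrol probes of the array, where all 10 of 10 had at least 1 probe (12 probes of 41174). All 10 passed the filter on dim probes that left 34776 probes for testing, although *Nr4a3* passed only through the uteri taken 2 hr after E2, where it was high. Counts of called transcripts are therefore given over the other 9. Each transcript is described by its level with saline, its change at 2 hr and its difference from saline at 24 hr.

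Uteri came from ovariectomized females of 10 weeks or more that rested 10 to 14 days and then received an intraperitoneal injection of 100 μl saline, or of 250 ng E2 or E3 in that volume. RNA was hybridized to 15 one-color Agilent arrays, 3 for each of 5 groups: saline at 24 hr, E2 at 2 hr, E3 at 2 hr, E2 at 24 hr and E3 at 24 hr. No saline array at 2 hr was analysed here, so the 3 saline arrays at 24 hr were the reference at both times, and all comparisons with saline share them. At 2 hr, estrogen therefore cannot be told apart from the time since injection and handling. The animals were of strain C57bl6/J, except those of the E2 2 hr group, labelled Esr1 WT of strain C57bl6/Jx129. The 3 arrays of that group were also on slides of their own and were read on another scanner and day, so strain, scanner and E2 treatment at 2 hr cannot be told apart. The arrays of E2 at 24 hr and those of E3 at 24 hr were on slides of their own too. Slide therefore cannot be told apart from treatment in the comparisons at 24 hr, or from time between 2 and 24 hr. The sample descriptions have each uterus extracted singly, while the study's methods speak of pooled tissue, so p-values measure the spread between arrays.

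Early genes are transcribed within minutes to hours of a signal from factors already present in the cell, among them SRF with its ternary complex partners, CREB and, for the CCN genes, YAP with TEAD. Egr proteins are zinc finger transcription factors, Nr4a proteins are orphan nuclear receptors, Ier2 and Ier3 are small regulatory proteins, and Cyr61 and Ctgf are secreted proteins of the extracellular matrix that bind integrins. In the uterus of an ovariectomized mouse, estrogen acts through the estrogen receptor to start a wave of such transcripts that comes before fluid uptake and epithelial proliferation. Estriol differs from estradiol by an additional hydroxyl group on the D ring and is known as a weak, short-acting estrogen.

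From the RefSeq promoter table (build GRCm38.p6, 250 bases before to 50 bases after a transcript start), 10 windows were used for 6 of the 10 genes: *Egr2*, *Nr4a1*, *Nr4a2*, *Nr4a3*, *Ier3* and *Cyr61*, the last listed under its present symbol Ccn1. Stretches of windows of 5 of these genes are shown because they hold the sites named next, chosen after the search, and the window of *Ier3*, which held none of them, is not shown. Capitals mark TGACG, the core of the cAMP response element bound by CREB, GGAATG, the letters bound by TEAD, and the CArG box bound by SRF, each on either strand. The *Nr4a2* stretch is chr2:57124004-57124253 (minus strand), and that of *Cyr61* is chr3:145649986-145650235 (minus strand). The shorter stretches of 30 bases are chr15:101266611-101266640 for *Nr4a1*, chr4:48045089-48045118 for *Nr4a3* and chr10:67537793-67537822 for *Egr2* (all plus strand).
Nr4a2: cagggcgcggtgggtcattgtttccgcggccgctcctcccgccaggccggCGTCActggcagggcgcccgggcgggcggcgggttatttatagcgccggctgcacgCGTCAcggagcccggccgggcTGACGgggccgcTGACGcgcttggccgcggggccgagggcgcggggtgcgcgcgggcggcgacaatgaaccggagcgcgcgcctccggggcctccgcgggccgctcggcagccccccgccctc
Cyr61: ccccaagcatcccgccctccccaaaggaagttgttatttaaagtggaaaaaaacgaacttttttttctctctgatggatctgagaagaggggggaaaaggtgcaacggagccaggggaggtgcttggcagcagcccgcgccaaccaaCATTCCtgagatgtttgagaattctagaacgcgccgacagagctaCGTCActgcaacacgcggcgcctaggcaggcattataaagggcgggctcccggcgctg
Nr4a1: tgCGTCAatggaaccccgcgtgCGTCAcgc
Nr4a3: tgtCGTCAcatTGACGtctcgCATTCCagg
Egr2: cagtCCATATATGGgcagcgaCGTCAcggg

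TGACG was present in windows of 5 of the 6 genes, and 20.8% of all 32851 windows held it. The windows of *Nr4a1*, *Nr4a2* and *Nr4a3* held 4 sites each, that of *Cyr61* held 1, and 3 of the 5 *Egr2* windows held 2. *Ier3* had no TGACG in its window. GGAATG was present for *Nr4a1*, *Nr4a3*, *Cyr61* and *Egr2*, 4 of 6 genes, against 14.7% of all windows. Among these 6 genes the CArG box was found only for *Egr2*, in 4 of its 5 overlapping or neighboring windows, and in 1.63% of all windows. The Sp1 box GGGCGG was in windows of all 6 genes (35.7% of all windows), and the Egr site GCGNGGGCG, which can overlap it, was in those of *Nr4a1* and *Nr4a2* (5.55%). The TATA box TATAAA was found for *Cyr61*, at -25 to -20 from the start (13.6% of all windows). The same letters were found for *Nr4a2* at -164 to -159, on the strand opposite to the gene. The letters of the palindromic estrogen response element were in none of the 6 (0.07% of all windows), and GGTCA, which forms each arm of that element, was found for *Nr4a2* (40.5%). The full CRE TGACGTCA (1.79%), the NBRE AAAGGTCA to which Nr4a proteins bind (1.51%) and the AP-1 site TGANTCA (7.81%) were found for none of the 6. A gene with several windows had more chances to hold a motif, and these matches describe letters and not binding.

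Levels are given as the log2 of the processed intensity minus the log2 of the same array's 75th percentile, so that 0 is the level of that percentile. Levels of different probes were not compared with each other. Of the 10 transcripts, 9 were well above background on all 15 arrays by their brightest probe, and no spot of those probes was saturated. With saline, *Egr1* was between 1.72 and 1.85, *Egr2* between -0.60 and 0.27, *Egr3* between -4.49 and -3.57, *Nr4a1* between 1.44 and 1.53 and *Nr4a2* between -1.31 and -1.17. *Ier2* was between 1.70 and 1.93, *Ier3* between 0.45 and 0.57, *Cyr61* between -1.16 and -0.64 and *Ctgf* between 3.22 and 3.43. *Nr4a3* was not well above background on any saline array.

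**Figure D1:**
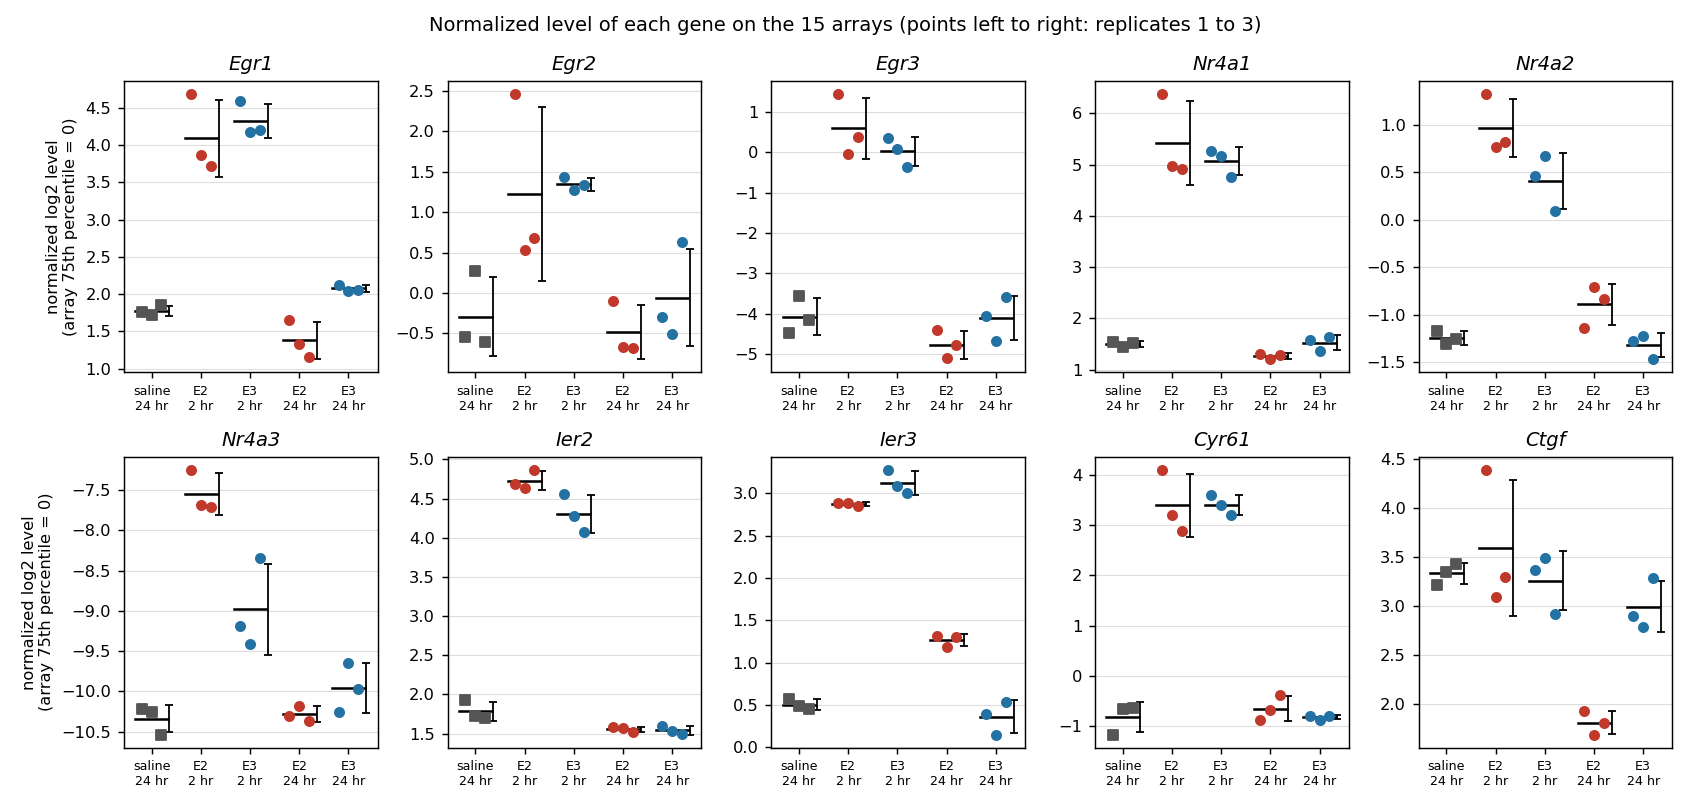
Normalized log2 level (vertical axis, 0 is the array's 75th percentile) of the probe with the highest mean signal for each gene on each array (points), with the group mean (line) and SD (bar, n = 3) for saline at 24 hr and for E2 and E3 at 2 and 24 hr. Each panel has its own vertical range. *Nr4a3* was well above background on only 2 arrays, both of E2 at 2 hr, and its other points show no measured level. Apart from *Nr4a3*, all points at 2 hr lie above the saline points for every gene except *Ctgf*. How many of all tested probes are separated in this way was not counted. At 24 hr only *Ctgf* with E2 passed the test against saline, downward.

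Most of these transcripts were higher 2 hr after either estrogen than 24 hr after saline. A change was called when limma's p-value was below 0.001 and the change was at least 2-fold, and the p-value adjusted by Benjamini and Hochberg over the tested probes is printed beside it. After E2, 7 of the 9 transcripts rose and none fell, where 10.6% of all tested probes were called higher. After E3, 7 of 9 rose and none fell, where 4.68% of all tested probes were called higher. In both cases the called genes were *Egr1*, *Egr3*, *Nr4a1*, *Nr4a2*, *Ier2*, *Ier3* and *Cyr61*. The median log2 change of the 9 was 2.37 with E2 and 2.55 with E3, against -0.08 and -0.11 over all tested probes.

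*Egr1*, a transcription factor induced by growth factors, was at 4.68, 3.87 and 3.72 on the E2 2 hr arrays and at 4.59, 4.18 and 4.21 on the E3 2 hr arrays. All 6 arrays were above the saline arrays by more than the range within any group. The log2 change was 2.32 ± 0.21 (SE) with E2, 4.98-fold (adjusted p = 1.83e-06), and 2.55 ± 0.21 with E3, 5.86-fold (adjusted p = 1.60e-06).

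*Egr3*, a factor that binds the same DNA letters as *Egr1*, rose from a low level. Its probe at mm7 chr14:64726656-64726715 gave 1.43, -0.04 and 0.38 with E2 and 0.35, 0.08 and -0.36 with E3, against saline values of -4.49, -3.57 and -4.15. The change was 25.3-fold with E2 (log2 4.66 ± 0.39, adjusted p = 8.09e-07) and 17.1-fold with E3 (log2 4.10 ± 0.39, adjusted p = 4.12e-06), and E2 and E3 arrays overlapped each other. The other *Egr3* probe, 3152 bases upstream, lay between -9.46 and -5.11 over the 15 arrays and its E2 and E3 arrays overlapped those of saline (log2 change 0.32 ± 1.12 with E2 and 1.30 ± 1.12 with E3), so the rise rests on 1 probe. By the mean of both probes the change was 2.49 (log2, adjusted p = 0.00447) with E2 and 2.70 (adjusted p = 0.00359) with E3, and neither was called. The upstream probe was well above background on 11 of 15 arrays.

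*Egr2*, the factor of hindbrain and myelin development, did not pass the p-value limit, although all treated arrays lay above all saline arrays. The E2 arrays were at 2.46, 0.53 and 0.67 and the E3 arrays at 1.43, 1.27 and 1.34, with the saline arrays at -0.54, 0.27 and -0.60. The change was 2.85-fold with E2 (log2 1.51 ± 0.46, adjusted p = 0.0123) and 3.11-fold with E3 (log2 1.64 ± 0.46, adjusted p = 0.0103). This probe is spotted 10 times on each array, and the SD between the spots of an array was 0.03 to 0.07, while the SD between arrays of a group reached 1.07. In 4 of the 5 groups the highest *Egr2* level came from the array on which 5 leukocyte markers summed highest (linear level in units of the 75th percentile). With saline this was replicate 2, with *Egr2* at 0.27 and a sum of 16.5 against 5.49 and 5.74, and with E3 at 24 hr replicate 3, at 0.63 and 35.8 against 7.02 and 7.04. With E2 it was replicate 1 at both times, at 2.46 and 6.12 against 4.26 and 3.68 at 2 hr and at -0.10 and 12.1 against 8.71 and 7.25 at 24 hr. On the E3 2 hr arrays the sum was 6.55, 11 and 28.3, and *Egr2* was not highest where the sum was. *Egr3* was highest on the same array in those 4 groups, so this was not particular to *Egr2*. It was at -3.57 with saline, 1.43 and -4.41 with E2 at 2 and 24 hr and -3.58 with E3 at 24 hr. How often other probes followed the leukocyte sum in this way was not counted, and the part of leukocytes in these values was not tested. Without replicate 1 of the E2 2 hr group the E2 change of *Egr2* was 0.89 (log2). Its E3 change, then with a smaller pooled error, passed the limit (adjusted p = 0.000856).

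*Nr4a1* (Nur77), a receptor that acts without a known ligand in cell growth and death, was at 6.37, 4.97 and 4.92 with E2 and at 5.27, 5.17 and 4.76 with E3, against 1.53, 1.44 and 1.53 with saline. The treated and saline arrays were more than 3 log2 units apart. The rise was 15.15-fold with E2 (log2 3.92 ± 0.30, adjusted p = 3.76e-07) and 11.9-fold with E3 (log2 3.57 ± 0.30, adjusted p = 1.52e-06). *Nr4a2* (Nurr1), its relative in dopamine neurons, was at 1.32, 0.76 and 0.82 with E2 and at 0.46, 0.67 and 0.09 with E3, from -1.17, -1.31 and -1.26. It rose 4.64-fold with E2 (log2 2.21 ± 0.17, adjusted p = 5.15e-07) and 3.14-fold with E3 (log2 1.65 ± 0.17, adjusted p = 9.27e-06), and all E3 arrays were below all E2 arrays.

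*Nr4a3* (Nor1), the remaining receptor of that family, was near the limit of the arrays. Its probe was well above background on 2 of 3 E2 2 hr arrays and on 0 of 12 others. It was at -7.25, -7.68 and -7.72 with E2 at 2 hr, and all other arrays gave signals below background. Against the lowest signals well above background on the saline arrays, *Nr4a3* was 1.48-fold higher 2 hr after E2. This is a rough bound, because the E2 mean includes an array that was not well above background. Its signal still exceeded the lowest one marked well above background on that array. Saline and E3 arrays were both below background, so no fold and no direction are given for E3. Because this probe was tested only through the group where it was high, its tests are not counted.

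*Ier2* and *Ier3* rose with little spread. *Ier2*, a nuclear protein of the immediate early response, was at 4.68, 4.63 and 4.86 with E2 and at 4.56, 4.28 and 4.07 with E3, from 1.93, 1.72 and 1.70 with saline. Its rise was 7.70-fold with E2 (log2 2.95 ± 0.12, adjusted p = 4.08e-09) and 5.74-fold with E3 (log2 2.52 ± 0.12, adjusted p = 2.04e-08). A dimmer *Ier2* probe 174 bases away rose too, 3.69-fold with E2 (adjusted p = 4.17e-05) and 3.14-fold with E3 (adjusted p = 0.00018). *Ier3* (IEX-1), a regulator of cell survival, was at 2.89, 2.89 and 2.85 with E2 and at 3.28, 3.08 and 3.01 with E3, from 0.57, 0.48 and 0.45. It rose 5.18-fold with E2 (log2 2.37 ± 0.10, adjusted p = 7.16e-09) and 6.15-fold with E3 (log2 2.62 ± 0.10, adjusted p = 7.23e-09), and here all E3 arrays were above all E2 arrays.

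The 2 CCN genes differed from each other. *Cyr61* (Ccn1), which promotes adhesion and vessel growth, was at 4.10, 3.21 and 2.89 with E2 and at 3.60, 3.40 and 3.20 with E3, from -1.16, -0.66 and -0.64 with saline. Its rise was 18.65-fold with E2 (log2 4.22 ± 0.26, adjusted p = 7.80e-08) and 18.68-fold with E3 (log2 4.22 ± 0.26, adjusted p = 1.60e-07). *Ctgf* (Ccn2), which promotes matrix deposition, was at 4.39, 3.09 and 3.29 with E2 and at 3.37, 3.49 and 2.91 with E3, against 3.22, 3.35 and 3.43 with saline. The groups overlapped, and neither change passed the test (log2 0.26, 95% interval -0.35 to 0.86 with E2; log2 -0.07, -0.68 to 0.53 with E3). The E2 value turned to -0.14 without replicate 1.

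**Figure D2:**
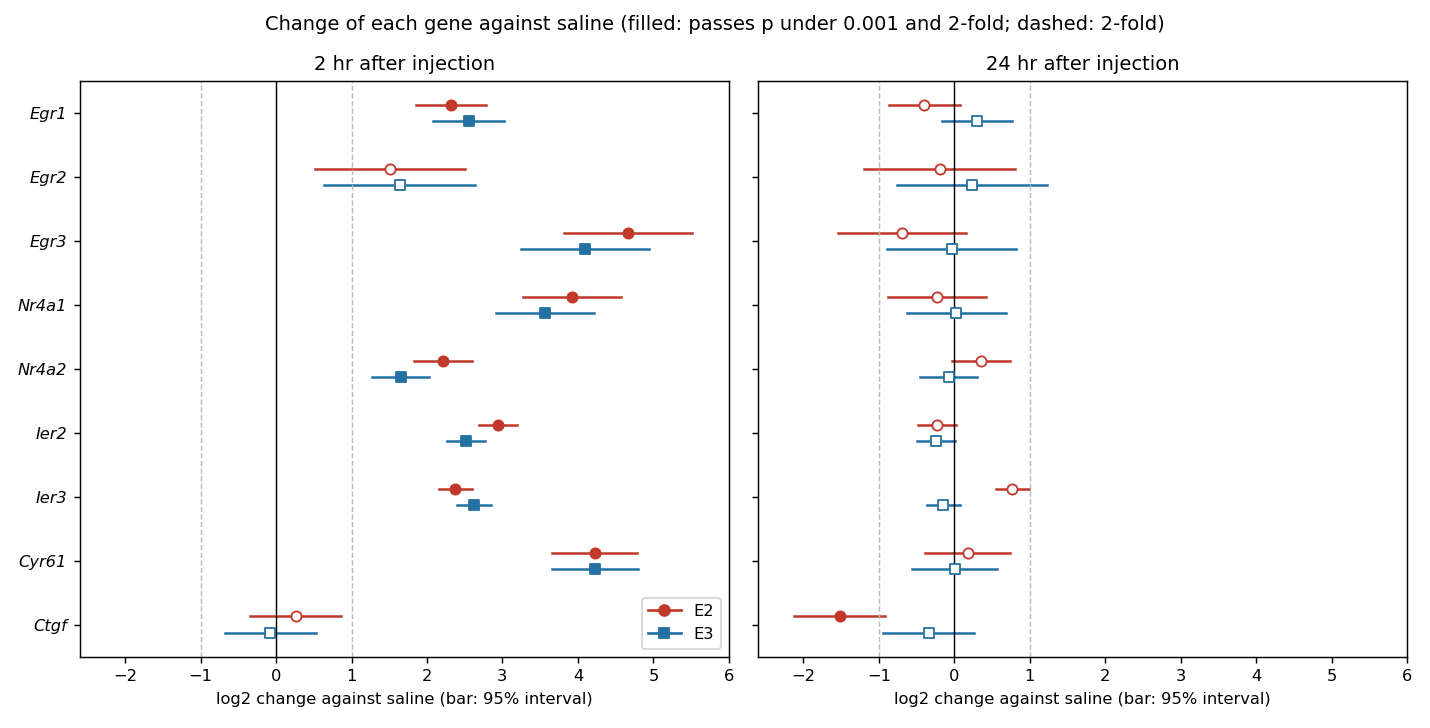
Log2 change against saline (horizontal axis, points) with its 95% interval (bars) for each gene at 2 hr (left) and 24 hr (right), for E2 (circles) and E3 (squares). Filled points passed p under 0.001 and 2-fold, and dashed lines mark 2-fold. At 2 hr the points run from 0.26 to 4.66 for E2 and from -0.07 to 4.22 for E3, and at 24 hr *Ctgf* with E2 is the single filled point. *Nr4a3* is left out because its saline signals were below background.

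Replicate 1 of the E2 2 hr group stood apart from the other two arrays of its group. It held the highest value of the group for 8 of the 10 transcripts, all but *Ier2* and *Ier3*, and the median excess over the other two was 0.97 (log2). That count and median include *Nr4a3* (excess 0.45), which was tested only through this group and was well above background on 2 of its 3 arrays. Over all tested probes replicate 1 was highest for 32.2%, and over the probes called higher after E2 at 2 hr for 18.8%. The excess was 1.86 for *Egr2*, 1.43 for *Nr4a1*, 1.26 for *Egr3*, 1.19 for *Ctgf* and 1.05 for *Cyr61*, and -0.06 for *Ier2* and 0.02 for *Ier3*. Without that array 7 of the 9 were still called after E2, with log2 changes of 2.02 for *Egr1*, 4.24 for *Egr3*, 3.45 for *Nr4a1* and 3.87 for *Cyr61*. On replicates 1, 2 and 3 of that group the blood markers summed to 64.4, 28.2 and 18.2, the leukocyte markers to 6.12, 4.26 and 3.68, the endothelial markers to 8.65, 6.63 and 7.03, the stromal markers to 192, 171 and 169, the fat markers to 23.1, 16.3 and 19.8 and the smooth muscle markers to 292, 286 and 267 (linear level in units of the 75th percentile). Replicate 1 was highest for these 6 sums and lowest for the epithelial markers (48.6, 62.1 and 65). The skeletal muscle markers summed to 2.41, 2.64 and 2.08. The part of tissue makeup in the values of that array was not tested.

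Slide could be fitted as a fixed block for E3 at 2 hr alone, because the 3 E3 2 hr arrays shared a slide with saline replicate 3. Within that slide the E3 arrays were above saline by 2.47 (log2) for *Egr1*, 4.18 for *Egr3*, 3.54 for *Nr4a1*, 1.66 for *Nr4a2*, 2.61 for *Ier2*, 2.67 for *Ier3* and 4.04 for *Cyr61*, and *Ctgf* was at -0.17. With slide as a fixed block *Nr4a2* was no longer called. The saline side of that fit was 1 array and its spread came from the other arrays, so its p-values and counts are not given.

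By 24 hr most of the early rise was gone. After E2, 8 of the 9 transcripts were lower at 24 hr than at 2 hr, where 17.2% of all tested probes were called lower, and after E3 7 of 9 were lower, where 6.46% were. *Egr2* was not called in either course. The E2 count includes *Ctgf*, which had not risen at 2 hr, fell by 1.78 on the log2 scale and was not called with only the groups compared in the fit (adjusted p = 0.00404). *Ctgf* was not called with E3 (-0.27). *Nr4a3* was, by a rough bound, 1.48-fold lower at 24 hr than at 2 hr with E2, and with E3 it was below background at both times. The falls from 2 to 24 hr, on the log2 scale, were -5.36 with E2 and -4.13 with E3 for *Egr3*, -4.15 and -3.54 for *Nr4a1*, -4.05 and -4.22 for *Cyr61*, -3.17 and -2.76 for *Ier2* and -2.71 and -2.25 for *Egr1*. For *Nr4a2* they were -1.86 and -1.72, and for *Ier3* -1.61 and -2.77. The E2 arrays at 2 hr and 24 hr differ in strain and scanner, whereas the E3 arrays do not, and with either estrogen they differ in slide.

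Against saline at 24 hr, *Ctgf* fell with E2 and none of the other 8 was called, where 11.1% of all tested probes were called lower. *Ctgf* was at 1.93, 1.69 and 1.81 with E2, all below the saline arrays, a log2 change of -1.52 ± 0.28 or 0.349-fold (adjusted p = 0.000484). With E3 at 24 hr it was at 2.90, 2.79 and 3.28, which overlapped saline (log2 -0.34, 95% interval -0.95 to 0.26). At the same time *Nov* (Ccn3), another gene of the CCN family, fell with E2 (log2 -1.44 ± 0.19, adjusted p = 4.79e-05) and was at 0.10 ± 0.19 with E3.

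With E3 at 24 hr, limma called none of the 9, where 3.81% of all tested probes were called in either direction, and none had an unadjusted p under 0.05. The changes lay between -0.34 and 0.30 (log2), with a median of -0.04. *Cyr61* was at -0.80, -0.87 and -0.79, inside the saline range, and *Nr4a1* was at 1.58, 1.37 and 1.63, on both sides of it. The 95% intervals at 24 hr with E3 were -0.62 to 0.68 for *Nr4a1*, -0.56 to 0.57 for *Cyr61*, -0.36 to 0.08 for *Ier3* and -0.76 to 1.23 for *Egr2*.

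*Ier3* was above saline at 24 hr with E2, where a rise kept from 2 hr and a separate later one cannot be told apart. It was at 1.31, 1.19 and 1.30, above all saline arrays (0.57, 0.48 and 0.45) and below all E2 2 hr arrays. The difference from saline was 1.70-fold (log2 0.77 ± 0.10, adjusted p = 4.19e-05), past the p-value limit and short of 2-fold. With E3 it was at 0.39, 0.15 and 0.54 (log2 -0.14 ± 0.10). *Egr1* was a little below saline with E2, at 1.65, 1.33 and 1.16 (log2 -0.40 ± 0.21, adjusted p = 0.127), and a little above it with E3, at 2.13, 2.05 and 2.06 (log2 0.30 ± 0.21, adjusted p = 0.304). Neither difference passed the test.

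Markers of several cell types differed between the groups. At 2 hr the stromal markers summed to 139 to 144 with E3 and 169 to 192 with E2, against 169 to 213 with saline, and the endothelial markers to 5.12 to 5.51 with E3 and 6.63 to 8.65 with E2, against 6.72 to 7 with saline, and their part in the 2 hr values was not tested. The summed linear level of 6 epithelial markers (in units of the 75th percentile) was 149 to 159 with E2 and 116 to 125 with E3, against 71.1 to 97.1 with saline and 48.6 to 69.4 at 2 hr. At 24 hr 5 of the 6 were above saline on all arrays with either estrogen, while *Foxa2*, a factor of the uterine glands, was below it on all arrays and was not called (log2 -0.91 with E2 and -0.71 with E3). That of 6 stromal markers was 183 to 195 with E2 and 218 to 240 with E3, against 169 to 213 with saline, and that of 6 smooth muscle markers was 331 to 362 with E2, 345 to 422 with E3 and 250 to 289 with saline. The sum of 4 endothelial markers was 3.92 to 4.47 with E2 and 4.95 to 5.22 with E3, against 6.72 to 7 with saline, and that of 4 fat markers was 6.76 to 11.1 with E2, 8.08 to 36.5 with E3 and 8.95 to 51.7 with saline. The sum of 4 skeletal muscle markers was 7.79 to 10.7 with E2 and 5.09 to 7.87 with E3, against 3.18 to 3.51 with saline, and 2 of the 4 were called higher with E2 and 0 with E3 (*Myh4* was below background on all saline arrays). All markers of the other 5 lists were well above background on all arrays. In bulk tissue, fewer cells of a type and less RNA per cell cannot be told apart, and the part of tissue makeup in the 24 hr values was not tested. Liver transcripts (7 markers) summed to 4.73 to 17.7 with saline, 1.16 to 2.91 with E3 at 2 hr, 0.235 to 0.467 in both groups at 24 hr and 0.0331 to 0.0428 with E2 at 2 hr, where *Apoa1*, *Ttr*, *Fgg* and *Fgb* were not well above background on any array. Exocrine pancreas transcripts (4 markers) were at 342, 8.27 and 0.185 on the E3 2 hr arrays and at 175, 3.67 and 0.25 on the E2 24 hr arrays, and were 0.129 to 0.357 with saline, with E2 at 2 hr and with E3 at 24 hr. Their part in these values was not tested.

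E3 and E2 were compared directly at the same dose and time, 1 pair of compounds at 2 times. At 2 hr limma called none of the 9 transcripts different, where 7.37% of all tested probes were called, and 3 had an unadjusted p under 0.05. *Nr4a3*, below background on the E3 arrays, was by a rough bound 1.30-fold higher with E2, the group through which it was tested. *Nr4a2* (E3 minus E2, log2 -0.56, 95% interval -0.94 to -0.18, adjusted p = 0.0212) and *Ier2* (-0.43, -0.68 to -0.18, adjusted p = 0.0105) had no overlap between their E2 and E3 arrays and were not called. *Ier3* lay the other way (0.25, 0.03 to 0.47, adjusted p = 0.0660).

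For the others no difference at 2 hr could be shown, within intervals of different width. The E3 minus E2 difference was 0.00 (95% interval -0.56 to 0.57) for *Cyr61*, 0.24 (-0.23 to 0.70) for *Egr1*, -0.35 (-1.001 to 0.30) for *Nr4a1*, -0.57 (-1.41 to 0.28) for *Egr3*, -0.33 (-0.94 to 0.27) for *Ctgf* and 0.12 (-0.87 to 1.12) for *Egr2*. Without replicate 1 of the E2 2 hr group it was 0.35 for *Cyr61*, 0.53 for *Egr1*, 0.12 for *Nr4a1*, 0.74 for *Egr2*, -0.15 for *Egr3* and 0.06 for *Ctgf*, and none was called.

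**Figure D3:**
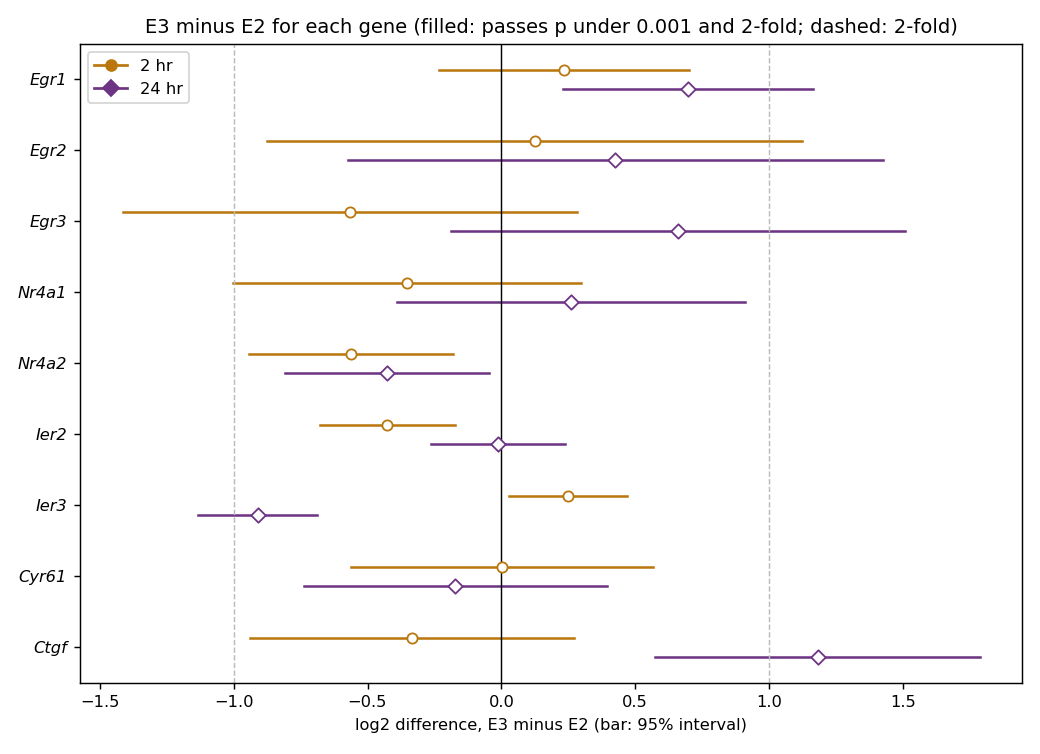
E3 minus E2 difference on the log2 scale (horizontal axis, points) with its 95% interval (bars) for each gene at 2 hr (circles) and 24 hr (diamonds). Filled points passed p under 0.001 and 2-fold, and dashed lines mark 2-fold. *Nr4a3*, below background on the E3 arrays, is left out, and no point is filled. At 24 hr the *Ier3* and *Nr4a2* intervals lie wholly below 0 and those of *Ctgf* and *Egr1* wholly above it.

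At 24 hr limma called none of the 9 different between E3 and E2, where 4.85% of all tested probes were called, and 4 had an unadjusted p under 0.05. *Ctgf* was 2.27-fold higher with E3 (log2 1.18, 95% interval 0.58 to 1.79, adjusted p = 0.00582), just outside the p-value limit. It was called without the E2 2 hr arrays (adjusted p = 0.000506). *Ier3* was 0.532-fold with E3 (log2 -0.91, -1.13 to -0.69, adjusted p = 5.70e-05), inside the p-value limit and short of 2-fold. *Egr1* was 1.62-fold with E3 (log2 0.70, 0.23 to 1.17, adjusted p = 0.0232) and *Nr4a2* was 0.743-fold (log2 -0.43, -0.81 to -0.05, adjusted p = 0.0747), and neither was called.

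The difference between the estrogens changed with time for 1 of the 9 transcripts, where 15.5% of all tested probes were called. For *Ier3* the E3 minus E2 difference at 24 hr minus that at 2 hr was -1.16 ± 0.14 (log2, adjusted p = 6.89e-05). *Ctgf* had a value of 1.51 ± 0.39 (adjusted p = 0.00769) and was not called. It was called without replicate 1 of the E2 2 hr group (1.12, adjusted p = 0.00369) and without replicate 2 of that group (1.76, adjusted p = 0.00289). *Nr4a3* was below background in 3 of the 4 groups of this comparison and is not counted. This comparison includes the E2 2 hr arrays, with their other strain and scanner.

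Relatives of the 10 genes were taken from a list of 9, of which 8 had a tested probe, and list members were counted by their brightest probe. At 2 hr 3 of 8 rose and 1 fell with either estrogen, where 10.6% of all tested probes were called higher and 10.7% lower with E2, and 4.68% higher and 9.11% lower with E3. The medians were 0.38 with E2 and 0.23 with E3. *Egr4*, the remaining Egr factor, went from -7.10, -6.40 and -7.05 with saline to 0.38, -1.45 and -1.51 with E2 and to -0.002, 0.20 and -0.78 with E3, log2 changes of 5.99 ± 0.50 (adjusted p = 7.69e-07) and 6.65 ± 0.50 (adjusted p = 6.58e-07). *Nab2*, a corepressor that binds Egr proteins, went from -0.59, -0.25 and -0.27 with saline to 3.82, 3.50 and 3.74 with E2 and to 1.45, 0.96 and 1.21 with E3. It rose by 4.05 ± 0.17 with E2 (adjusted p = 7.20e-09) and by 1.58 ± 0.17 with E3 (adjusted p = 1.30e-05), and was 2.48 ± 0.17 lower with E3 than with E2 (log2 -2.48, adjusted p = 1.90e-06). Its relative *Nab1* was not called by either of its probes (log2 0.26 and -0.31 with E2, -0.39 and -0.30 with E3).

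Among the CCN relatives at 2 hr, *Wisp1* (Ccn4) fell and *Wisp2* (Ccn5) rose. *Wisp1* was between -1.98 and -1.07 on the 6 treated arrays and between -0.05 and 0.28 with saline, with log2 changes of -1.73 ± 0.22 with E2 and -1.51 ± 0.22 with E3. *Wisp2*, a gene of smooth muscle growth control, rose by 2.38 ± 0.41 with E2 and by 3.55 ± 0.41 with E3 from a level well above background on 2 of 3 saline arrays. *Nov* was not called at 2 hr (-0.39 and -0.40), nor was *Ier5* (0.49 and 0.42). The 2 probes of *Ier5l* differed: the brighter was not called (-0.09 with E2 and 0.04 with E3), and the dimmer rose with E2 (1.03 ± 0.12, adjusted p = 1.09e-05) and was at 0.40 with E3. At 24 hr *Nov* with E2 was the single one of the 8 called against saline, where 11.1% of all tested probes were called lower, and it was the single one called between E3 and E2 (1.53 ± 0.19, adjusted p = 0.000121), where 4.85% were called.

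**Figure D4:**
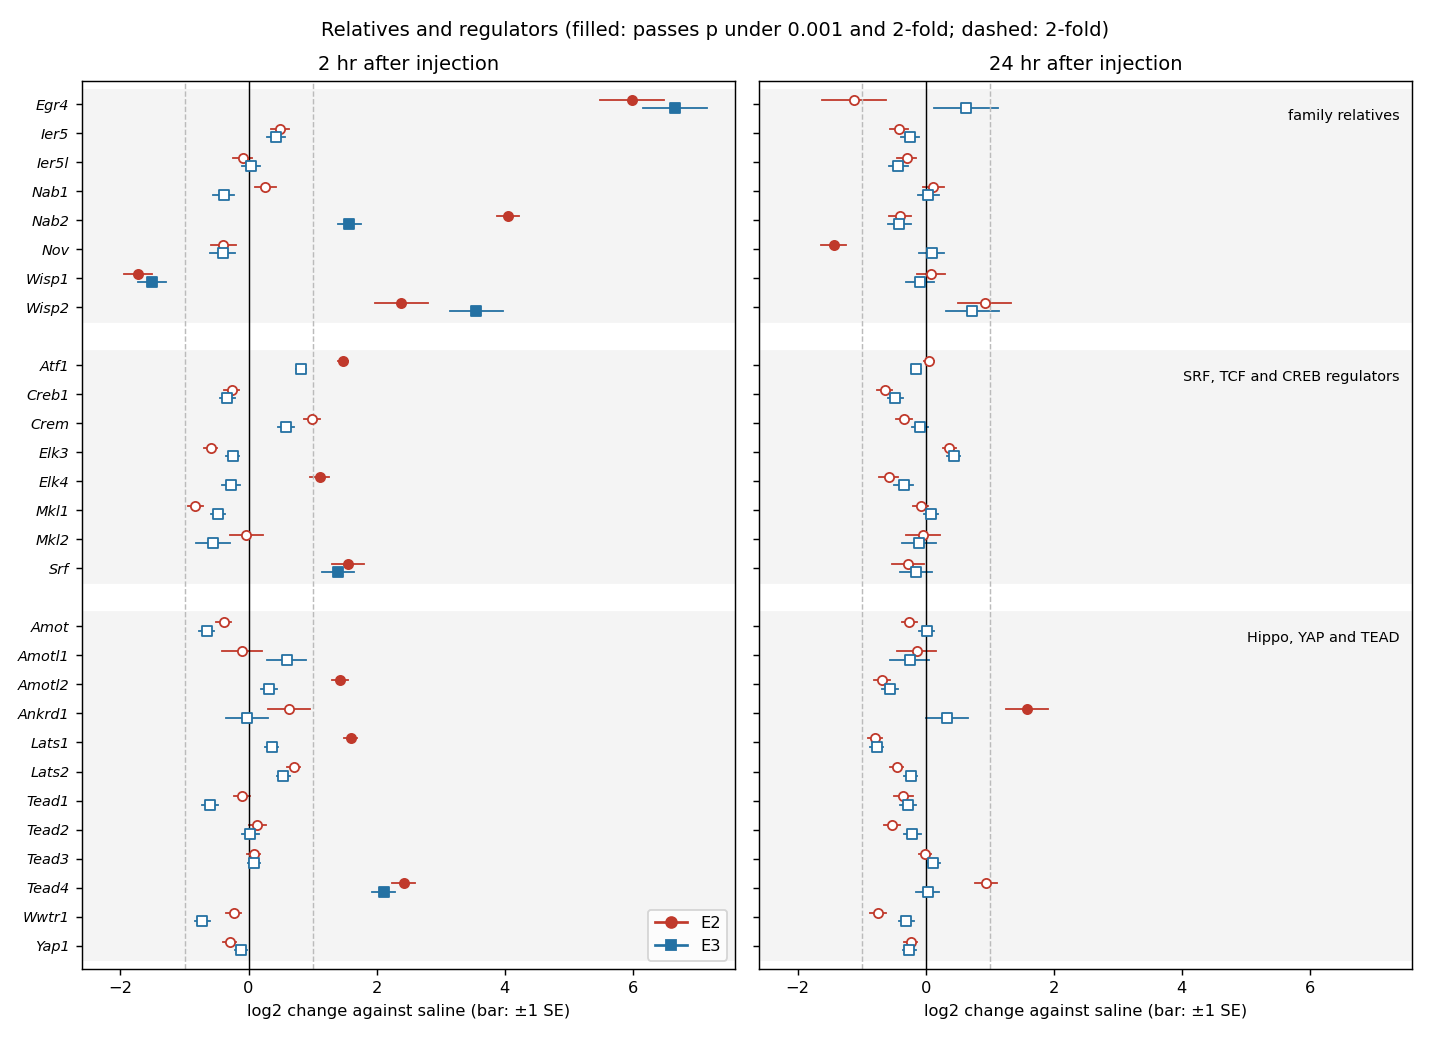
Log2 change against saline (horizontal axis, points, with bars of 1 SE) of relatives and regulators at 2 hr (left) and 24 hr (right) for E2 (circles) and E3 (squares). Filled points passed p under 0.001 and 2-fold, and dashed lines mark 2-fold. *Egr4*, *Nab2*, *Wisp2*, *Srf* and *Tead4* are filled on the right side of 0 at 2 hr for both estrogens, and *Wisp1* on the left side.

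Of the factors known to drive early genes, 8 of 9 SRF, ternary complex and CREB regulators were tested. With E2 at 2 hr 3 rose (10.6% of all tested probes) and with E3 1 did (4.68%), and the medians were 0.48 and -0.26. *Srf* rose with both, from 3.22, 2.92 and 3.09 to 4.98, 5.05 and 3.87 with E2 (log2 1.56 ± 0.25, adjusted p = 0.00015) and to 4.68, 4.54 and 4.22 with E3 (1.401 ± 0.25, adjusted p = 0.000504). *Atf1*, of the CREB family, rose by 1.47 ± 0.08 with E2 and was at 0.82 ± 0.08 with E3. *Elk4*, a ternary complex factor, rose by 1.11 ± 0.15 with E2 by its brightest probe, which was at -0.27 ± 0.15 with E3. The other 2 *Elk4* probes went up with both, 1 of them past the limits (2.08 ± 0.23 with E2 and 1.42 ± 0.23 with E3) and the other not (0.65 and 0.51), so the probes disagree on E3. *Creb1* was not called by any of its 3 probes, of which the brightest was below saline (-0.26 with E2 and -0.34 with E3) and the other 2 were above it (0.50 and 0.82 with E2, 0.35 and 0.49 with E3). None of the 8 was called at 24 hr with either estrogen, where 18.1% of all tested probes were called in either direction with E2 and 3.81% with E3.

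All 12 Hippo pathway, YAP and TEAD transcripts were tested, and at 2 hr 3 rose with E2 (10.6% of all tested probes) and 1 with E3 (4.68%). *Tead4*, a DNA-binding partner of YAP, rose at 2 hr with both, from -4.62, -4.74 and -4.61 to -2.77, -2.04 and -1.89 with E2 (log2 2.42 ± 0.18) and to -2.46, -2.64 and -2.54 with E3 (2.11 ± 0.18). *Lats1*, a kinase that restrains YAP, rose by 1.60 ± 0.10 and *Amotl2*, a YAP binding protein, by 1.43 ± 0.13 with E2, and both were lower with E3 than with E2 (-1.24 ± 0.10 and -1.11 ± 0.13). The brightest *Amotl1* probe was not called (-0.10 with E2 and 0.60 with E3), while its other probe rose with both (2.55 ± 0.22 and 1.92 ± 0.22). *Yap1* was at -0.29 with E2 and -0.12 with E3. At 24 hr *Ankrd1*, a target of YAP, rose with E2 (1.58 ± 0.33, adjusted p = 0.0012, where 6.93% of all tested probes were called higher), opposite in direction to *Ctgf*, and was at 0.33 ± 0.33 with E3. The other 11 were not called against saline at 24 hr, where 18.1% of all tested probes were called in either direction with E2.

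The median profile of the 10 transcripts over the 15 arrays, each centred on its own mean, was compared with all other named probes. The genes with the most similar profile were 1500041J02Rik (Pearson r = 0.994), *Oxtr*, the oxytocin receptor (0.993), A330102K23Rik (0.993), *Errfi1*, an inhibitor of the EGF receptor (0.993), and *Arc* (0.992). At 2 hr *Oxtr* was higher than saline by 3.97 (log2) with E2 and 3.90 with E3, *Errfi1* by 3.81 and 3.26 and *Arc* by 5.33 and 5.76, and at 24 hr all 3 were between -0.25 and 0.21. Among the members other than *Nr4a3*, r with the median profile was 0.864 to 0.996 for all except *Ctgf*, at 0.575. That profile is made up of these same transcripts. It includes *Nr4a3*, whose probe was well above background on only 2 arrays, both of E2 at 2 hr. The points of each correlation share arrays and groups, so r describes these 15 arrays.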

How the data were processed

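RNA from 15 uterine samples (3 in each of 5 groups, assigned from the sample labels) was hybridized by the authors to one-color Agilent mouse arrays, and the deposited files hold the processed intensity of each spot from Agilent Feature Extraction 9.5.3.1, background-corrected and not normalized between arrays. The deposited value table holds the same intensity values and was fitted as an alternative. Probe positions in the file headers are of build mm7. The deposited files also give mean and local background intensity, used for the normexp alternative, and a mark of whether each spot is well above background, saturated or an outlier.

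From these intensities, flagged spots (1893) were left out, log2 of the intensity was taken, the log2 of each array's 75th percentile (2988.68 to 4411.89 intensity units) was subtracted and spots of 1 probe were averaged. A probe was tested when 2 or more arrays of any group had it well above background (34776 of 41174, 84.5%). On each array 77.82 to 81.75% of probes were well above background, and the number of arrays limits the precision. One linear model with 5 group means was fitted over the 15 arrays with limma 3.58.1 in R 4.3.3 (10 residual and 2.06 prior degrees of freedom), and p-values were adjusted by the Benjamini-Hochberg method over all tested probes. A call needed p below 0.001 and a change of at least 2-fold. A gene with several probes is given and counted by the probe of highest mean signal, with dimmer probes beside it where named. Fold changes of a probe below background on all arrays of a group are given as rough bounds, except 1 fitted *Nr4a3* value in the closing section.

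Genes named are the 10 transcripts, called members of 3 lists of relatives and regulators with their uncalled relatives, and the 5 named probes most like the median profile. Of the cell type markers, *Foxa2* is named for its direction and *Myh4*, *Apoa1*, *Ttr*, *Fgg* and *Fgb* for signals below background. *Nab1*, *Ier5*, *Ier5l*, *Creb1*, *Amotl1* and *Yap1* were added for contrast after their values were seen. The members and lists were chosen with earlier results of these data known. Alternatives covered background correction, scaling, filter, probe choice, call rule, slide, replicate block, samples in the fit and leaving out each array. The model was tested on simulated data. Promoter sequences are from RefSeq (GRCm38.p6), and those of *Egr1*, *Egr3*, *Ier2* and *Ctgf* were not used here.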

Additional observations from a re-analysis of the deposited data

Results flagged for a closer look

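For *Ier3* the E3 minus E2 difference was not the same at 2 and 24 hr by limma's interaction test, by which 15.5% of all tested probes were called. It changed by -1.16 (log2, SE 0.14, adjusted p = 6.89e-05), from 0.25 at 2 hr to -0.91 at 24 hr, and by -1.16 also without replicate 1 of the E2 2 hr group. The fitted value for *Nr4a3* was 1.75, but its probe was well above background on 2 of the 15 arrays, both of the E2 2 hr group through which it was tested, so this is not a measured difference. The E2 2 hr arrays, which differ in strain and scanner, enter both values, and strain and scanner cannot be told apart from the treatment.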

How the results depend on the processing

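Counts are over the 9 transcripts other than *Nr4a3*. Of 2313 values recomputed for single transcripts under other settings, 2289 kept their side of the limits (39 of them, all uncalled, changed sign), 4 were no longer called, 20 became called and no called value reversed. The count with E2 at 24 hr against saline went from 1 to 2 with the p-value alone. The count for E3 against E2 at 24 hr went from 0 to 1 with probes well above background on all arrays, with adjusted p below 0.05 and 2-fold, with the p-value alone, without the E2 2 hr arrays and with only the groups compared. With 1 array left out it was 0 to 1: *Ctgf* was called without replicate 1 or 2 of the E2 2 hr group, and *Ier3* without replicate 3 of the E3 24 hr group. The count for the change of that difference with time was 1 and became 2, with *Ctgf*, under adjusted p below 0.05 and 2-fold and without replicate 1 or 2 of the E2 2 hr group. With *Nr4a3* included, which the report does not count, the count for E3 against E2 at 2 hr was 1 and became 0 with normexp, with probes well above background on all arrays (by construction) and with only the groups compared, and that for the change with time was 2, became 1 with normexp, quantile scaling and probes well above background on all arrays, and was 1 to 3 with 1 array left out. The cause was not tested. With normexp the median of all probes was 0.32 (log2) in place of -0.01 for E3 at 24 hr against saline, 0.50 in place of 0.12 for E3 at 24 against 2 hr, 0.44 in place of 0.06 for E3 against E2 at 24 hr and 0.48 in place of 0.11 for its change with time.

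The counts at 2 hr against saline were 6 to 8 with either estrogen over the settings other than leaving out 1 array. With a replicate block the counts in the 9 comparisons were 7, 7, 1, 0, 8, 7, 0, 0 and 1, as without it. Arrays of the same number correlated at -0.47 to 0.55 (30 pairs, 10 over 0.1). For E3 at 2 and 24 hr all 3 pairs were over 0.1 (0.388, 0.115 and 0.551), and the count for that comparison was 7 with the block and without it. No other 2 groups had all pairs over 0.1. Slide as a random block had a correlation of -0.0125. Signal below background limits *Nr4a3*.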
